A study of Mus musculus with 31 samples.

Results

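The 5S ribosomal DNA array of mouse chromosome 8 is a run of near-identical repeat units at chr8:126062001-126147900 (mm9), between Gas8, which encodes an axoneme protein, and the uncharacterised gene Gm19600. The array was chosen as the longest run of 100-bp tiles that were higher in the last stage of the series (Type7) than in the first (Type1), so the levels of those 2 stages are given as descriptions with no test. Its members are the CpG sites in those coordinates that had at least 5 reads in any library: 2011 sites, of 2076 listed there and of 1229947 sites with that depth in the whole series.

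The libraries are reduced representation bisulfite sequencing (RRBS) of oocytes from B6D2F1 (C57BL/6 x DBA/2) mice, in which MspI cuts DNA at CCGG and bisulfite turns unmethylated C into T, so that each read shows whether a CpG was methylated. The 31 libraries come from 9 stages. Type1 and Type2 are oocytes of primordial follicles (3 libraries each), Type3a and Type3b of primary follicles (3 each), Type4 (5), Type5a (5) and Type5b (3) of secondary follicles, and Type6 and Type7 of antral follicles (3 each). No agent, allele or age separates the groups in the labels, and nothing there ties libraries to separate animals. The p-values below therefore measure the spread between libraries, part of which may be technical. A further label, in which embryo stages are named, goes against the titles and was set aside.

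As background, 5S rRNA is the small RNA of the large ribosomal subunit that is made outside the nucleolar array of the other rRNAs. RNA polymerase III transcribes it from a promoter that lies inside the gene, where the factor TFIIIA binds, and repeated copies stand in tandem, each gene followed by a longer spacer. Growing oocytes store ribosomes, and they are also the cells in which DNMT3A with its partner DNMT3L lays down the methylation of the egg genome.

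The label was checked against the annotation. RefSeq (GRCm38.p6) places 51 entries between the same neighbouring genes, 48 of them 5S rRNA genes of 119 to 121 bp (n-R5s100 to n-R5s149 among them, and Rn5s) and 3 pseudogenes (n-R5s127, Rn5s-ps1 and Gm23647). That build differs from the files' build, so spacings between copies were compared and no coordinate was carried over. A reference CpG in the context GCGT recurred in 47 of 51 copies, at distances of 1665 to 1727 bp (median 1698.5 bp over 42 spacings), and positions in the unit are given from it, negative at lower coordinates. The sites at -81 to 18 bp from it, called the gene segment here, had the spacing of the annotated genes within 2 bp in 98.1% of 312 spacings, against 13.8% and 15.96% when the annotation was shifted by 1 copy either way.

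The sites fell into 47 position classes in 4 segments. The spacer fragment (-820 to -627 bp) held 405 members in 51 copies, the gene segment 362 members in 47 copies and the flank beside it (24 to 209 bp) 1073 members in 50 copies. A distal stretch (-885 to -826 bp) held 157 members, of which only 3 libraries measured 10 or more, and 14 members could not be aligned. Among the listed sites a CCGG stood at -820 and -627 bp, the ends of the spacer fragment, at -81 bp (in 3 copies) and at 209 bp, with none between the gene segment and the flank.

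The letters around the sites, pieced together from the 5-base contexts in the deposited files, are shown from copy 46 so that the segments can be told apart. Each stretch is the plus strand of chr8 in mm9, and capitals mark the CpG sites whose levels follow.
spacer, chr8:126138348-126138365, the same in 39 copies: caCGgccaCGcaCGCGca
gene segment, chr8:126139079-126139096, the same in 32 copies: gaCGagatCGggCGCGtt
border of gene segment and flank, chr8:126139109-126139136, the same in 30 copies: gcCGtagaCGagggCGggCGgCGcCGac
flank, chr8:126139180-126139203, the same in 42 copies: ccCGccCGaCGccCGaCGccCGat
flank, chr8:126139205-126139222, the same in 44 copies: ccCGaCGaCGaCGaCGag
The spacer letters hold 4 CpGs in 18 bases, as the gene letters do, and the flank letters hold 6 in 24 bases and 5 in 18. Copies with the same letters cannot be told apart by a read that covers only those letters, and how the authors placed reads with several matches is not given in the sources used here, so a value for a single copy may hold reads of other copies.

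Depth set what could be measured. Libraries had 7949652 to 60361665 reads over CpG sites, and 209 to 1313 RPM (reads of the array scaled to the reads of the library) fell in the array. A library measured 277 to 1587 members, with a median of 6 to 40 reads per site. A level is the mean over sites of methylated reads over all reads, and no segment level is given where a library had fewer than 10 sites of a segment. The reads carry no molecular identifiers, so every SD and interval derived from reads covers counting error only.

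As a sign of libraries that stand apart, the mean level of 63 CpG-dense tiles of the X chromosome minus that of 2902 CpG-dense autosomal tiles was taken in each library. As background, CpG-dense promoters of an inactive X chromosome are methylated, and growing oocytes keep both X chromosomes active. This X measure was above 0 in 9 of 31 libraries: 1 of Type1, 1 of Type3a, 3 of Type4, 2 of Type5a and 2 of Type6. Levels before Type5b are given with and without these libraries.

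Over the 262 members that at least 2 libraries of every stage measured, the array was nearly unmethylated in primordial oocytes and nearly fully methylated in the last antral stage. Primordial oocytes had a mean level of 5.57% ± 5.00 (Type1) and 3.34% ± 1.70 (Type2), and primary oocytes 9.03% ± 7.95 (Type3a) and 12.98% ± 6.20 (Type3b; SD, n = 3 each), then 19.1% ± 9.95 in Type4 and 14.8% ± 7.74 in Type5a (SD, n = 5 each). It was 66.7% ± 4.74 (Type5b), 79.9% ± 5.10 (Type6) and 94.5% ± 1.92 (Type7; SD, n = 3 each). The largest step between neighbouring stages fell inside the secondary follicle: Type5b exceeded Type5a by 51.9 points (SE 4.41), and no library of the 2 stages overlapped. Of the 262 members, 190 are spacer sites, 62 flank sites and 9 gene sites, so this mean is mostly the spacer, and the segments are taken apart below.

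**Figure D1:**
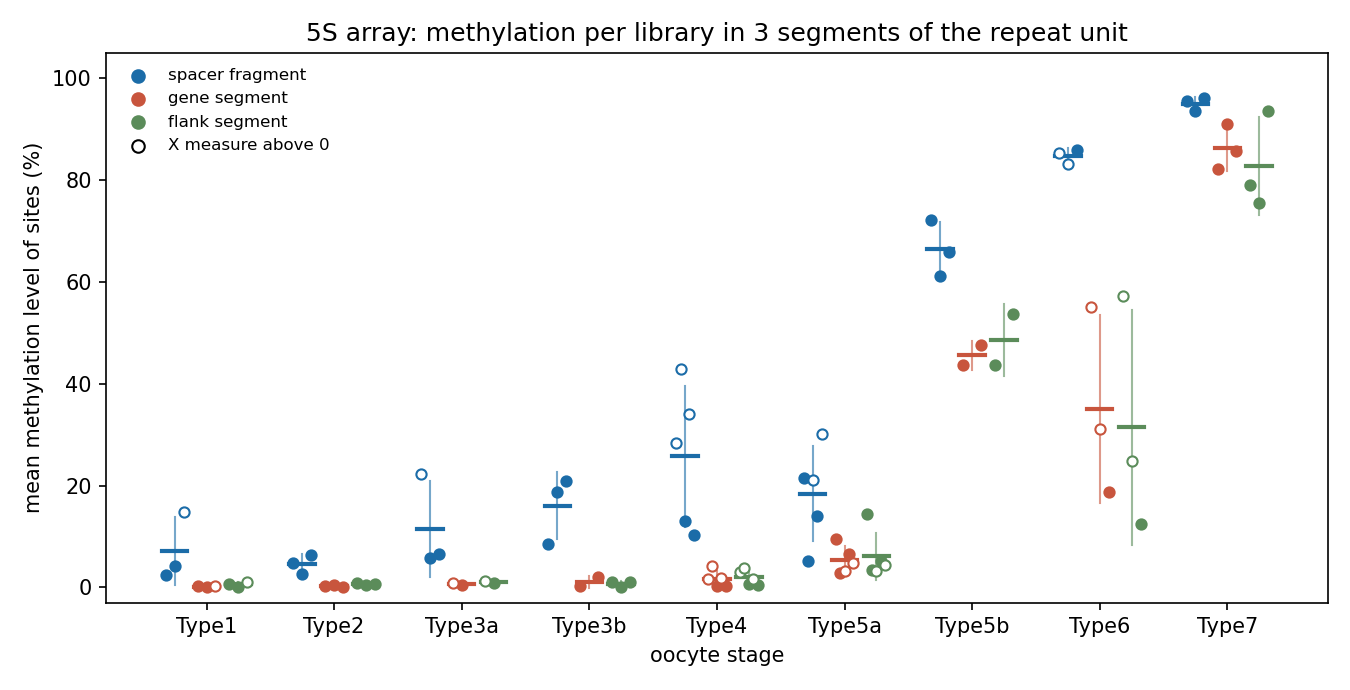
Mean methylation level (%) of the spacer, gene and flank sites in each library, with the 9 stages from left to right; each point is a library. Spacer points already spread between 5.26% and 42.9% in Type4 and Type5a while gene and flank points stay at or below 14.3%, and in Type6 the gene and flank points run from 12.4% to 57.2% beside spacer points of 83.1% to 85.9%.

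Before Type5b the spacer was higher than the gene segment and the flank. Its level was 2.36%, 4.23% and 14.7% in the Type1 libraries, 4.87%, 2.57% and 6.43% in Type2, 22.3%, 5.70% and 6.48% in Type3a and 8.51%, 18.8% and 20.9% in Type3b. In Type4 it was 28.3%, 42.9%, 13.1%, 34.1% and 10.2%, and in Type5a 21.4%, 5.26%, 21.04%, 14.1% and 30.2%. The libraries of these 6 stages overlapped from each stage to the next, with the highest in Type4 and the lowest in Type1.

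The 3 Type4 libraries of X measure above 0 were also the highest of that stage, at 28.3% to 42.9%, against 10.2% and 13.1% in the other 2. The same held in Type1, where the library above 0 had 14.7%, and in Type3a, where it had 22.3%, the highest of each stage. In Type5a the 2 libraries above 0 had 21.04% and 30.2%, and a library below 0 had 21.4%. The part of whatever lies behind the X measure in the spacer levels before Type5b was not tested. Without the 9 libraries the array level was 2.80% in Type1, 4.51% in Type3a, 9.22% in Type4, 11.9% in Type5a and 82.2% in Type6. The order of 3 pairs of neighbouring stages turned with this choice: Type4 then lay below Type3b (9.22% against 12.98%), Type5a above Type4 (11.9% against 9.22%) and Type2 above Type1 (3.34% against 2.80%).

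Gene and flank sites stayed low through the same stages. In the gene segment the level was 0.136% ± 0.119 in Type1 and 0.209% ± 0.234 in Type2 (SD, n = 3 each), and the libraries of Type4 had 1.68%, 4.19%, 0.198%, 1.84% and 0.272%. In the flank the Type4 libraries had 3.05%, 3.76%, 0.706%, 1.64% and 0.549%. Spacer sites were thus at 10.2% or more in every Type4 library in which gene and flank sites were at 4.19% or less.

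In Type5a the gene segment and the flank lay above their Type4 means, in part of the libraries. Gene sites had 9.45%, 2.73%, 3.29%, 6.48% and 4.73% in Type5a (replicates 1, 4, 5, 6 and 7), a mean of 5.34% against 1.64% in Type4. Flank sites had 14.3%, 3.31%, 3.24%, 5.15% and 4.34% in Type5a, a mean of 6.07% against 1.94% in Type4. The stages overlapped in both segments, and Type5a replicate 1 lay apart from the other 4 in the flank.

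In Type5b all segments were high, the spacer more so over all sites of at least 5 reads. That gap differed with read depth, as given near the end of these results. Spacer sites had 72.1%, 61.2% and 65.9% in Type5b, against at most 30.2% in Type5a, a difference of 48.0 points (SE 5.21). Gene sites had 43.6% and 47.6% in the 2 Type5b libraries that measured them, a mean difference of 40.3 points (SE 2.34) from Type5a, and flank sites 43.6% and 53.7%, a difference of 42.6 points (SE 5.44). The second Type5b library measured neither segment at 5 reads, so each of these Type5b values rests on 2 libraries.

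In Type6 every spacer level was above those of Type5b, and the gene segment and the flank showed no such order. Spacer sites had 85.3%, 83.1% and 85.9% in Type6, 18.4 points (SE 3.26) above Type5b with no overlap. Gene sites had 55.1%, 31.2% and 18.7% in Type6, a difference of -10.6 points (SE 10.9) from the Type5b mean, and flank sites 57.2%, 24.8% and 12.4%, a difference of -17.2 points (SE 14.2). In both segments Type6 replicate 1 lay above both Type5b libraries and the other 2 below them, so no direction can be given for the stage.

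The 3 Type6 libraries were thus close together in the spacer and far apart in the gene segment and the flank. They did not measure the same sites: the flank levels come from 918, 114 and 346 sites and the gene levels from 278, 26 and 15. The X measure was 1.04, 1.31 and -4.02 points, so the library with the lowest gene and flank levels was the one below 0. The share of array reads on the plus strand was 13.2%, 4.63% and 4.63%, with the highest share in the library with the highest levels.

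In Type7 the spacer was still the highest, by less on average than in Type6. Spacer sites had 95.5%, 93.6% and 96.1%, gene sites 82.1%, 91.1% and 85.7% and flank sites 79.0%, 75.5% and 93.6%. The gene and flank levels of the third Type7 library come from 11 and 21 sites. The Type7 libraries had 18.3% to 20.05% of their array reads on the plus strand, against 4.63% to 13.2% in Type6 and at most 6.70% in the libraries before. The part of these shares in the levels was not tested.

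Set beside each other within a library, spacer sites were higher than gene sites in 28 of 28 libraries that measured both and higher than flank sites in 29 of 29. Gene and flank sites kept no order, with the gene segment higher in 11 of 28 libraries and equal in 1. The spacer exceeded the gene segment by a mean of 24.1 points (Type4), 13.1 (Type5a), 23.4 (Type5b), 49.8 (Type6) and 8.75 (Type7). Without the Type4 libraries of X measure above 0 the Type4 value was 11.4 points. When only copies that measured both segments were paired, the Type6 value was 29.6 points, from the first Type6 library alone. No p is given, since the segments were described with results of these data known.

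**Figure D2:**
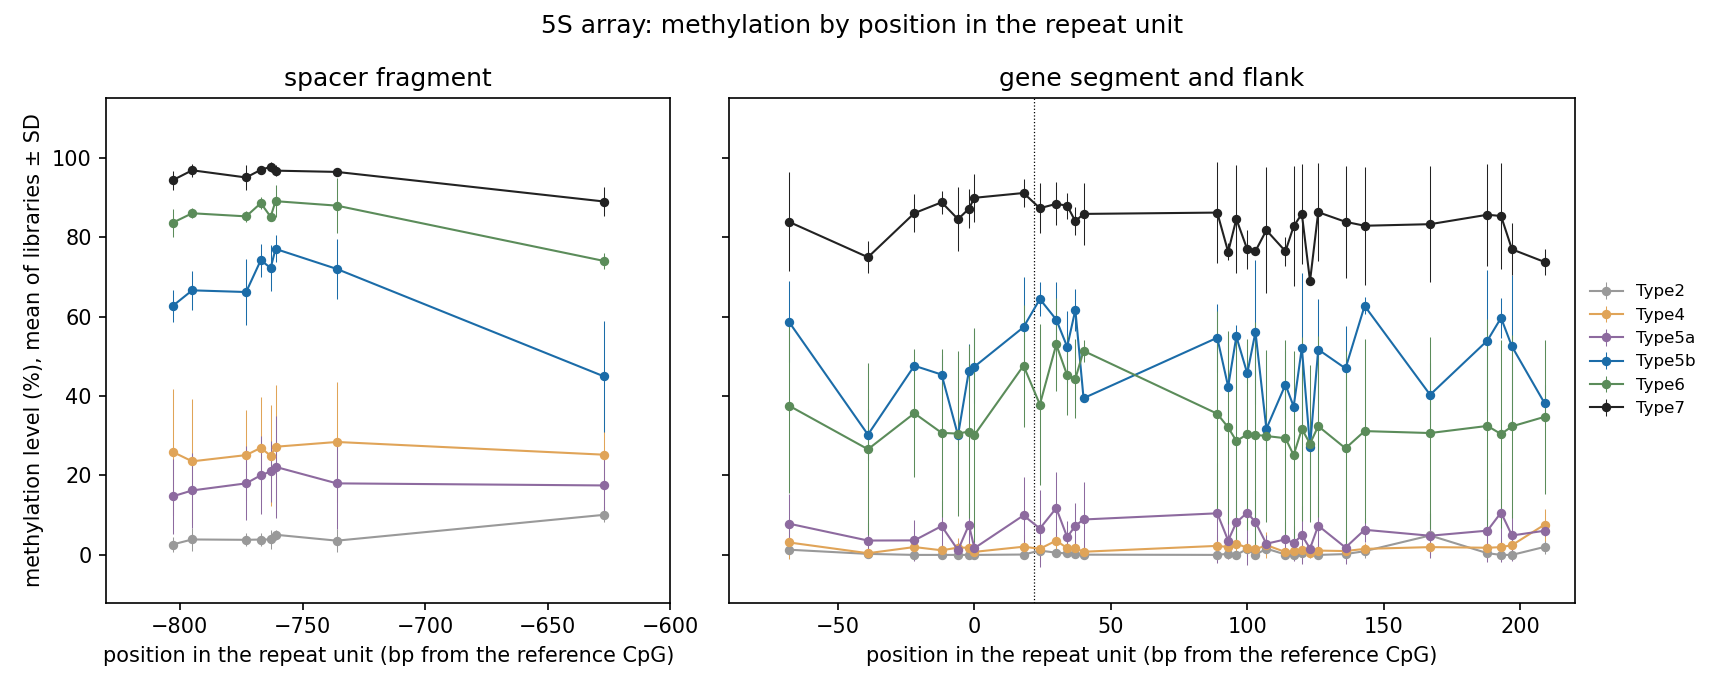
Methylation level (%) of each position class (mean over libraries, bars ± SD) against its distance in bp from the reference CpG, for Type2, Type4, Type5a, Type5b, Type6 and Type7, with the spacer fragment on the left and the gene segment and flank on the right; the dotted line parts the gene segment from the flank. The spacer classes shown span 44.9% to 77.0% in Type5b and the gene and flank classes shown 27.3% to 64.4%.

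Within each segment the single positions followed the segment, with some spread. In Type5b the 8 spacer classes measured in every stage and found in at least 10 copies ran from 44.9% to 77.0% (median 69.3%), the 8 gene classes from 30.1% to 58.7% (median 46.9%) and the 23 flank classes from 27.3% to 64.4% (median 52.1%). The ranges of the segments overlapped in Type5b. In Type6 the spacer classes ran from 74.0% to 89.0%, the gene classes from 26.6% to 47.6% and the flank classes from 25.1% to 53.0%, with no overlap between spacer and the other 2 segments.

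The lowest of these 8 spacer classes in Type5b was the CpG of the CCGG site at -627 bp, which lies at a fragment end, at 44.9% ± 13.96 (SD, n = 3). The highest was at -761 bp, in the context GCGC, at 77.0% ± 3.39 (SD, n = 3). Among the same 8 classes the CCGG class was also the lowest in Type6 (74.0%) and Type7 (88.9%), and it was the highest in Type1 (11.9%) and Type2 (10.1%). In the flank the lowest class in Type5b lay at 123 bp, inside the last sequence shown, at 27.3%, and the highest at 24 bp, inside the border sequence, at 64.4%.

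A test for each 100-bp tile addressed which steps between stages exceeded the spread between libraries. The array had 237 tiles with at least 3 sites: 57 in the spacer, 45 in the gene segment, 107 in the flank and 28 in the distal stretch. A quasi-binomial model for reads that were methylated, out of all reads, was fitted to all tiles of the genome and all 31 libraries, and a tile was called at a Benjamini-Hochberg adjusted p under 0.05 over all tiles tested and a difference of at least 20 points. Array tiles share reads and sequence, so their counts are not counts of independent regions. The array was chosen for its rise from Type1 to Type7, so a rise at some step between them was built in. The shares over all tiles, which were not so chosen, do not correct for that.

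Before Type5b no array tile was called. In Type3a against Type2 the model called 0 of 86 array tiles, beside 0.0352% of all 59607 tiles called higher and 0.00168% lower, with 5 array tiles at an unadjusted p under 0.05 and 0 called by limma. In Type3b against Type3a it called 0 of 55, beside 0.00582% higher and 0.00388% lower of all tiles, with 0 at an unadjusted p under 0.05 and 0 by limma. In Type4 against Type3b it called 0 of 106, beside 0.128% higher and 0.0331% lower, with 6 at an unadjusted p under 0.05 and 0 by limma. The array's median differences in these 3 comparisons were 2.75, 0.737 and 1.90 points, beside 1.07, 0 and 0.840 points over all tiles. Without Type3a replicate 2, 1 array tile was called in the first of them.

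In Type5a against Type4 no tile was called either. The model called 0 of 161 array tiles, beside 0.133% of all tiles higher and 0.0651% lower, with 22 at an unadjusted p under 0.05 and 1, lower, by limma. The median difference was -5.96 points over 48 spacer tiles, of which 13 were above 0, and 4.33 points over 30 gene tiles, of which 28 were above 0. It was 2.90 points over 83 flank tiles, of which 68 were above 0. Over all tiles of the genome the median difference was -0.230 points. The sign of the spacer turned without the libraries of X measure above 0, where the spacer level was 13.6% in Type5a and 11.7% in Type4. In the same libraries the gene segment had 6.22% in Type5a and 0.235% in Type4, and the flank 7.59% in Type5a and 0.627% in Type4.

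In Type5b against Type5a, 81 of 103 array tiles were called higher and 0 lower, beside 4.90% of all 65397 tiles called higher and 0.171% lower. All 103 differences were above 0, from 13.98 to 94.0 points, with a median of 47.6 points beside 0 over all tiles. The called tiles were 38 of 47 in the spacer (median difference 49.9 points), 8 of 11 in the gene segment (40.4 points) and 35 of 45 in the flank (43.7 points). limma called 87 of the 103, and the model fitted to the libraries of the 2 stages alone called 11.

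The number of called tiles depended on the Type5b libraries. Without Type5b replicate 1 the model called 6 of 45 tiles and without replicate 3 it called 28 of 46, where fewer tiles could be tested because replicate 2 measured no gene or flank site. The cause of the loss of calls among the tiles still tested was not tested. Without Type5a replicate 6 the count was 42 of 87. Without the 2 Type5a libraries of X measure above 0 the count was 54 of 68.

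**Figure D3:**
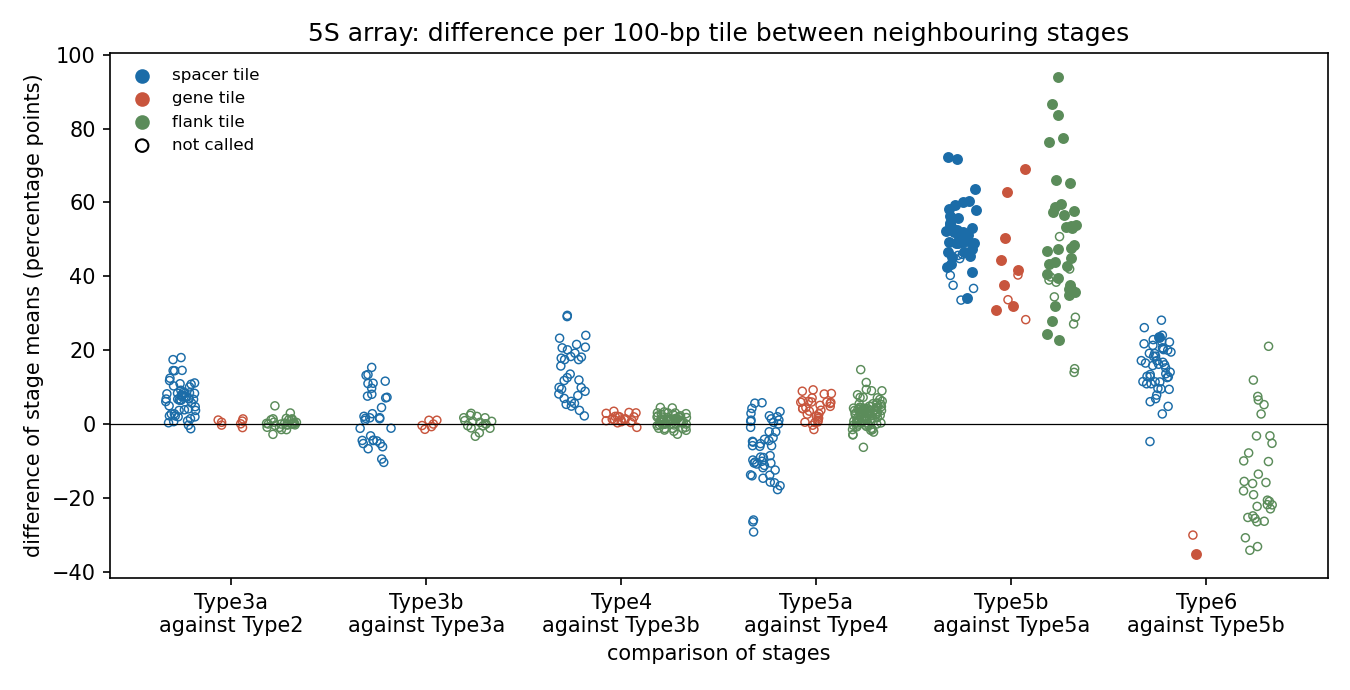
Difference of stage means (percentage points, later minus earlier stage) of each array tile for the comparisons of neighbouring stages, by segment; each point is a tile. In Type5b against Type5a all 103 points lie above 0, between 13.98 and 94.0 points, and in Type6 against Type5b the spacer and flank points lie on either side of 0, with medians of 16.03 and -17.1 points.

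Single tiles show how far copies differed in that step. The tile at chr8:126087501-126087600, a spacer tile and the tile with the most reads (14209), had 70.4%, 55.9% and 72.5% in Type5b, against 16.9%, 11.3%, 21.6%, 3.51% and 30.1% in Type5a (difference 49.6 points, quasi-binomial adjusted p = 0.0306). Its Type6 libraries had 94.1%, 83.3% and 90.0%, and its Type7 libraries 97.2%, 94.3% and 98.6%. The highest and lowest tiles named next are ranked among the 41 tiles measured in every stage, which are 32 spacer, 9 flank and 0 gene tiles. The spacer tile at chr8:126121301-126121400 was among their 3 highest in Type5b, with 75.8%, 70.5% and 92.8%. It had 18.8%, 3.70%, 7.23% and 0% in the 4 Type5a libraries that measured it (difference 72.2 points, quasi-binomial adjusted p = 0.000243). Neither tile had a Type5b library within the range of Type5a.

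The other 2 of the 3 highest tiles in Type5b lay in copies 38 and 51, across the border of gene segment and flank. Both hold the reference CpG and count as flank by most of their sites. The tile of copy 38 (chr8:126125501-126125600) had 82.7% and 92.6% in Type5b, against 0%, 0%, 1.62% and 2.13% in Type5a (quasi-binomial adjusted p = 2.88e-06). The tile of copy 51 (chr8:126147601-126147700), at the upper end of the array, had 93.5% and 98.2% in Type5b, against 0%, 5.56%, 0%, 2.51% and 1.27% in Type5a (quasi-binomial adjusted p = 0.000266). In Type6 the tile of copy 51 had 93.2% in the first library and 30.2% in the second, and that of copy 38 had 86.8% and 72.8%.

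The 3 lowest in Type5b of the tiles measured in every stage were flank tiles as well, of copies 12 and 46. The tile at chr8:126081501-126081600 (copy 12) had 20.4% and 20.3% in Type5b, against 12.5%, 0%, 7.55% and 5.29% in Type5a (quasi-binomial adjusted p = 0.231). Its neighbour at chr8:126081601-126081700 had 18.4% and 25.3% in Type5b, against 9.23%, 6.45%, 1.49% and 10.3% in Type5a (quasi-binomial adjusted p = 0.265). The tile of copy 46 at chr8:126139201-126139300, which overlaps the flank sequences shown above, had 23.6% and 36.9% in Type5b, against 0%, 2.58% and 4.74% in Type5a (quasi-binomial adjusted p = 0.0259).

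Copies 12, 38 and 51 hold the border letters and the flank letters printed from copy 46 as well. The gene letters printed above were found in copies 12 and 46 and not in copies 38 and 51. The tiles also do not cover the same part: the high tiles of copies 38 and 51 hold the border letters and not the 2 flank stretches. The part of these differences in the levels was not tested. Reads set copies 38 and 51 apart as well: they had 11284 and 11424 reads over flank sites in all libraries, against 5873 in copy 12 and 5818 in copy 46. The median over the copies was 5538. Copy 12 and copy 46 tiles reached 83.8% to 88.7% and 67.5% to 100% in Type7, against 3.64% to 52.0% and 14.3% to 39.9% in Type6.

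In Type6 against Type5b, 1 of 81 array tiles was called higher and 1 lower, beside 2.78% of all 61151 tiles called higher and 0.152% lower. The median difference was 16.03 points over 47 spacer tiles, of which 46 were above 0, and -17.1 points over 32 flank tiles, of which 6 were above 0. Over all tiles of the genome it was 3.03 points. At an unadjusted p under 0.05 there were 22 array tiles, and limma called 1, lower.

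The 2 called tiles are named here after their values were seen. A gene tile at chr8:126074601-126074700 had 43.1% and 42.0% in Type6, against 70.7% and 85.0% in Type5b (difference -35.3 points, quasi-binomial adjusted p = 0.00871). A spacer tile at chr8:126106001-126106100 had 94.8%, 78.3% and 95.7% in Type6, against 67.1%, 50.0% and 80.8% in Type5b (difference 23.6 points, quasi-binomial adjusted p = 0.0322). The number called was 0 to 2 when single libraries were left out, and it was 0 without Type5b replicate 1 and 1 without Type5b replicate 2, Type5b replicate 3 or Type6 replicate 3.

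Across the whole growth phase, in Type6 against Type2, 93 of 98 array tiles were called higher and 0 lower, beside 28.5% of all 72571 tiles called higher and 0.0372% lower. The choice of the array by its rise over nearly the same span made such a count likely beforehand, so it is read as a description. The median difference was 74.7 points, beside 8.99 points over all tiles. All 52 spacer tiles were called, with a median of 84.1 points, and 38 of 42 flank tiles, with a median of 37.0 points. The count was 60 without Type2 replicate 1 or replicate 2 and 50 without Type6 replicate 1, where fewer tiles had 2 libraries in each stage.

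The comparisons with the stages that chose the array are given as values only. In Type2 against Type1 the median difference was -0.290 points over 149 array tiles. Over the whole genome the model called 0.00719% of tiles higher and 0.0676% lower in that comparison, given as background only. In Type7 against Type6 it was 9.46 points over 50 spacer tiles and 34.6 points over 31 flank tiles, with a background of 1.00% of all tiles called higher and 0.449% lower. In Type7 against Type1 it was 87.3 points over 112 array tiles, beside 1.99 points over all tiles, with a background of 17.7% called higher and 0.159% lower.

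Copies within a library were compared next. In the spacer, over copies with at least 2 libraries in Type5b the SD between copies was 5.71 points around a median of 67.4%, and in Type6 it was 4.15 points around 85.8%. In the flank it was 15.7 points around 49.2% in Type5b and 14.1 points around 37.6% in Type6. Spacer copies had a median of 6694 reads in all libraries, flank copies 5538 and gene copies 1873.

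The spread between flank copies was set beside a simple reckoning from reads. If every read of a copy is taken as a single draw that covers all its sites, the reads of the first Type5b library (9.22 per site on average) give an SD of 17.3 points between copies, and the observed SD was 19.9 points over 34 copies. The pair of values was 19.0 observed and 20.1 from reads in the third Type5b library, 16.2 and 13.8 in the first Type6 library, 14.9 and 12.8 in the third, 19.8 and 16.6 in the first Type7 library and 14.8 and 16.7 in the second. Before Type5b the observed SD of the flank was below the reckoned one in every library for which it was reckoned. It was 0.612 against 2.04 points in the first Type1 library and 2.04 against 6.08 points in the first Type4 library. The reckoning is thus a rough yardstick, and in the flank it ran above the observed spread throughout the earlier stages. In the spacer the observed SD was above it in libraries both before and after that step. These were Type2 replicate 1 (6.02 observed, 3.57 from reads), Type3a replicate 2 (4.79 and 3.82) and Type5b replicate 1 (12.8 and 7.64). Type6 replicate 1 (7.45 and 4.19) and Type6 replicate 3 (6.37 and 4.88) were others. In Type4 replicate 6 (5.52 and 5.49) and Type7 replicate 1 (3.33 and 3.30) the 2 values were nearly equal.

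**Figure D4:**
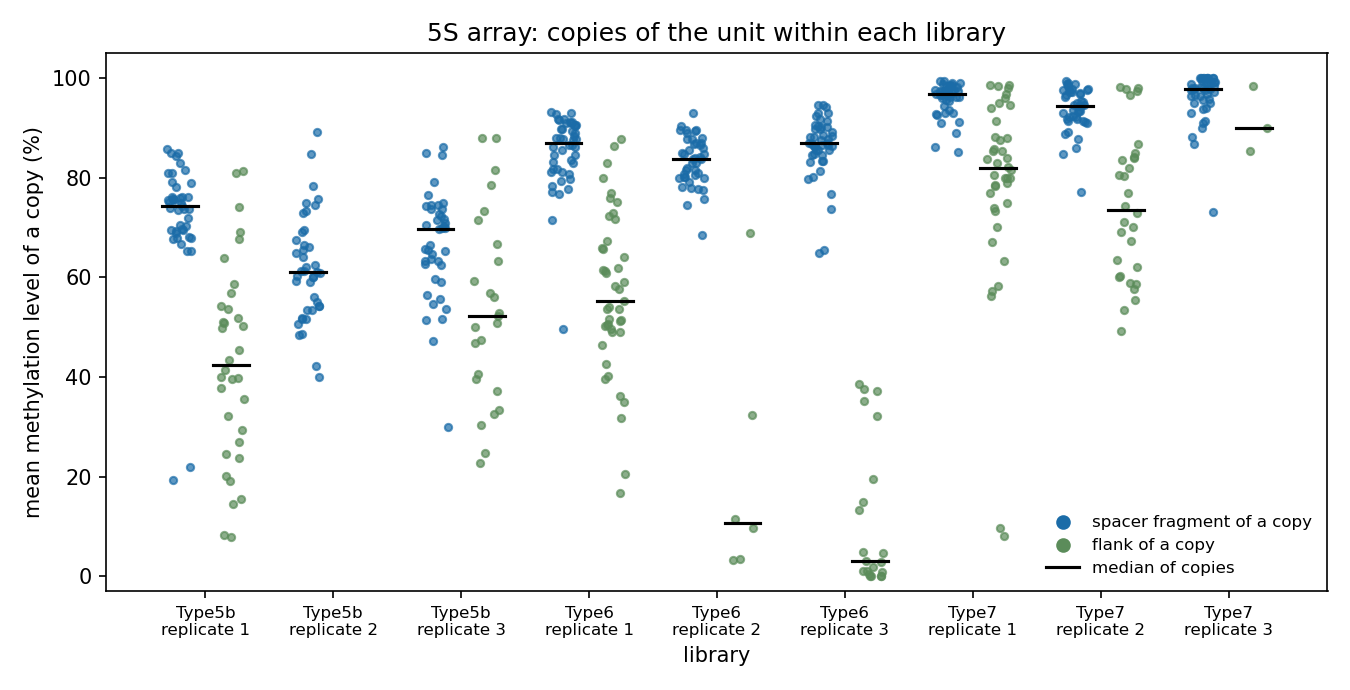
Mean methylation level (%) of each copy of the unit in the libraries of Type5b, Type6 and Type7, for the spacer and the flank; each point is a copy. Flank copies of the first Type6 library centre on 55.2%, those of the second on 10.7% and those of the third on 3.08%, while nearly all spacer copies of the 3 lie high.

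The 3 Type6 libraries differed in their flank copies as a whole. The first Type6 library had 1 of 43 copies below 20%, with a median of 55.2%. The second had 4 of 6 below 20%, with a median of 10.7%, and the third 16 of 21, with a median of 3.08%. In Type5b the copy medians were 42.4% over 34 copies in the first library and 52.2% over 25 in the third, and in Type7 they were 81.9% over 40, 73.6% over 30 and 90.0% over 3.

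Copies 43 and 50 carry a longer flank sequence, with a further CGA, and were looked at after their values were seen.
copy 43, chr8:126134123-126134143: ccCGaCGaCGaCGaCGaCGag
copy 50, chr8:126146041-126146061: ccCGaCGaCGaCGaCGaCGag
In the first Type7 library they were the only copies below 20% in the flank, at 8.01% over 17 sites in copy 43 and 9.61% over 17 sites in copy 50, while the spacer of the same copies had 92.8% and 98.2%. In the first Type5b library the same 2 copies had 27.0% and 24.5%, where 5 of 23 and 4 of 22 sites stood at 100% and 18 and 17 sites below 20%.

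Site by site the profiles of the 2 copies lay close together in some libraries. The mean absolute difference between matched sites of copies 43 and 50 was 1.27 points in the first Type5b library, the smallest of 561 pairs of copies, whose median was 23.3 points. It was 2.24 points in the first Type7 library, beside a median of 14.6 points over 677 pairs, of which 4 were closer, and 5.40 points in the first Type6 library, beside 17.6 points over 898 pairs, of which 26 were closer. In the third Type5b library it was 10.5 points, beside a median of 26.7 points over 231 pairs, of which 4 were closer. In the second Type7 library the low level did not recur: their sites had mostly 3 or 4 reads there, below the minimum, and the pooled level of sites with at least 3 reads was 98.5% in copy 43 and 100% in copy 50.

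A spacer site was also low where its neighbours were high. Of 345 spacer sites measured in 2 or more Type7 libraries, 2 were below 50%, and both stand at -704 bp in the context GCGC, a class found in copies 3 and 39 alone. At chr8:126065490-126065490 (copy 3) it had 4.55%, 34.3% and, from 5 reads, 20% in the Type7 libraries and 3.77%, 0% and 9.80% in Type6. At chr8:126126559-126126559 (copy 39) it had 9.09%, 19.4% and 16.7% in Type7 and 1.39%, 21.1% and 0% in Type6. The 6 or 7 spacer sites at lower coordinates of the same copies averaged 86.0% to 100% in the same Type7 libraries. These sites too were chosen after their values were seen. In the flank 6 of 494 sites were below 50% in Type7, all in copy 17.

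At the edges, the first measured tile inside the array (chr8:126062001-126062100, spacer) had means of 26.1% (Type5a), 78.5% (Type5b), 91.9% (Type6) and 96.5% (Type7). The last (chr8:126147801-126147900, flank) had 4.38%, 87.9%, 68.8% and 88.4% in the same 4 stages. The nearest measured tile outside at lower coordinates (chr8:126046901-126047000) had 4.08%, 30.7%, 75.6% and 49.4%, and that at higher coordinates (chr8:126185001-126185100) 40.7%, 91.9%, 98.2% and 98.0%. The lower outside tile thus stayed below the array in Type7, and the upper one lay as high.

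Other sequence gives the scale. The 41 array tiles measured in every stage averaged 16.4% ± 7.82 over the 5 Type5a libraries, and 68.8% ± 3.52 (Type5b), 81.5% ± 4.36 (Type6) and 95.0% ± 1.89 (Type7; SD, n = 3 each). Another 2514 tiles of the genome were chosen by levels of at most 10% in Type1 and Type2 and at least 80% in Type7. The array was chosen by Type7 against Type1, without these limits. The 2514 tiles had 20.2%, 64.8% ± 7.11, 82.7% ± 1.98 and 96.6% ± 0.573 in Type5a, Type5b, Type6 and Type7. The 369 of them that were at least as CpG-dense as the median array tile (30 listed sites per kb), with no upper limit, had 10.8%, 50.1% ± 10.1, 67.8% ± 3.78 and 95.3% ± 1.07. Of the 41 array tiles 32 are spacer tiles, which hold fewer CpGs than the flank, and their mean lay within the SD of the 2514 tiles in Type5b and Type6. The flank, where the CpGs are dense, had 48.6% ± 7.11 in Type5b (SD, n = 2), 31.5% ± 23.1 in Type6 and 82.7% ± 9.61 in Type7 (SD, n = 3 each). Its Type6 mean, which is over sites, lay below the mean of the 369 dense tiles. In Type7 the levels cannot be compared, since those tiles had to be above 80% there and the flank sites did not.

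The 45S rDNA copy on chromosome 17, which codes for the other rRNAs, stayed low. Its 30 tiles had 13.9% ± 2.27 over the 5 Type5a libraries, and 7.16% ± 1.18 (Type5b), 8.40% ± 1.68 (Type6) and 8.86% ± 0.597 (Type7; SD, n = 3 each). Its highest tile was at 19.3% in Type7. The 8 spacer classes of the 5S array measured in every stage and found in at least 10 copies were at 88.9% or more.

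**Figure D5:**
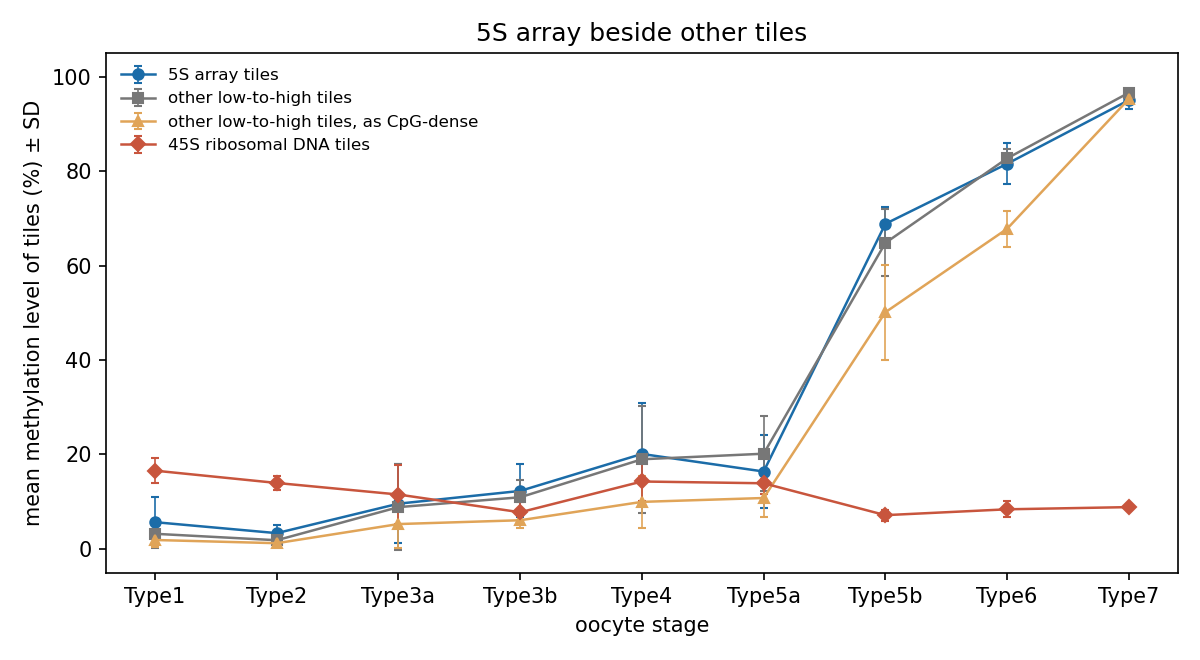
Mean methylation level (%) ± SD over libraries for the array tiles, the other low-to-high tiles, those of them at least as CpG-dense as the median array tile, and the 45S copy, by stage. The array and the other low-to-high tiles run together up to 95.0% and 96.6% in Type7, and the 45S copy ends at 8.86%.

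Values on either side of the depth minimum were set beside each other. Spacer values with 5 or 6 reads averaged 52.6% in Type5b (47 values). Those with 3 or 4 reads, just outside the minimum, averaged 29.4% (51 values). Flank values averaged 50.8% with 5 or 6 reads and 48.6% with 3 or 4 reads in the same stage, and gene values 50.5% and 37.6%. In Type5b the spacer thus lay near the other segments at 5 or 6 reads and below them at 3 or 4 reads. The part of depth in the Type5b gap between segments was not tested. The spacer gap was smaller in every other stage and kept no direction, with 25.9% against 21.2% in Type4 and 77.2% against 80.8% in Type6. The part of the minimum in the Type5b spacer gap was not tested.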

How the data were processed

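MspI fragments of oocyte DNA received premethylated adaptors before bisulfite treatment, were enriched by PCR and kept at 200 to 700 bp, per the labels' protocols. BSMAP 2.89 and mm9 are named in the submitters' processing notes. Trimming, methylation caller and multiply placed reads: not given in the sources used here. For each CpG site the deposited files hold a count of reads, a count of methylated reads and the methylated fraction, and sites under 3 reads are not listed.

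The members, segments and lists were chosen with earlier results of these data known. Sites needed 5 reads, and tiles of 100 bp needed 3 such sites and 2 libraries in each stage compared. The tile test was a quasi-binomial model whose dispersion was moderated over all tiles with limma 3.58.1 in R 4.3.3 and held at 1 or more, fitted to all libraries with stage as the only term, after a check on simulated counts; Benjamini-Hochberg adjustment ran over all tiles. Levels were computed in Python 3.11.15 with numpy 2.4.6 and pandas 2.3.3. Named tiles are the 3 highest and 3 lowest in Type5b among tiles measured in every stage, the tile with most reads, and the tiles at and beside the edges. Over array sites deeply read in both libraries, no pair of libraries of a stage shared more than 3.70% of its site values. Some pairs of Type3b, Type4 and Type5a had no such site, so the check could not cover them. Each was counted as a library of its own. Alternatives covered depth, sites per tile, tile size, pooled reads, limma, a replicate block and left-out libraries. A C-to-T variant would read as unmethylated. The distal stretch, measured in 3 libraries, is described by its size alone.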

Additional observations from a re-analysis of the deposited data

Results flagged for a closer look

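Of 31 sets of 4 to 10 library values that were looked at, 4 held a library apart from the others of its stage, and chance gives about 1 in 20 such sets. That rate does not hold where all other values are 0%, as in the tiles of copies 38 and 51 below, since any value above 0% is then flagged. The sets are also not independent, since they share libraries. In the flank, Type5a replicate 1 had 14.3%, and the next of the 5 Type5a libraries had 5.15%. Its level comes from 206 flank sites. In the share of reads, Type4 replicate 2 had 1033 RPM in the array, and the next of the 5 Type4 libraries had 606. The same library had 2.67% in the flank tile of copy 38 (chr8:126125501-126125600) and 3.42% in that of copy 51 (chr8:126147601-126147700), where the other 3 Type4 libraries that measured the tiles had 0%. Type4 replicate 2 also had the highest spacer level of its stage (42.9%) and the highest X measure of all 31 libraries (10.6 points), and the part of these in its tile values was not tested.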

How the results depend on the processing

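No gap between segments changed sign under the alternatives run, although Type5b values of 3 or 4 reads taken alone had the spacer lowest. The array level turned its order in Type4 against Type3b, Type5a against Type4 and Type2 against Type1 without the libraries of X measure above 0, with levels of 9.22% in Type4, 12.98% in Type3b, 11.9% in Type5a, 3.34% in Type2 and 2.80% in Type1. Array tiles called: in Type5b against Type5a (81 of 103) the count was 24 of 43 with a minimum of 10 reads, 39 of 40 with copies summed per position class and 11 of 103 when the model used the 2 stages alone, which leaves fewer libraries for the spread, and leaving out a library gave 6 to 78. In Type6 against Type5b (2 of 81) it was 4 with a minimum of 3 reads, 1 with 10 reads, 8 with at least 1 site per tile, 1 with at least 5 sites, 1 with 200-bp tiles, 1 with at most 10 reads per site, 0 with copies summed, 0 with the 2 stages alone and 1 by limma, and leaving out a library gave 0 to 2. In Type6 against Type2 (93 of 98) it was 50 of 52 with 10 reads, 173 of 180 with at least 1 site per tile and 39 of 40 with copies summed, and leaving out a library gave 50 to 92. In Type3a against Type2 leaving out a library gave 0 to 1, and in Type5a against Type4 limma gave 1.

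Replicate numbers do not pair the libraries: correlations of same-numbered libraries ran from -0.137 to 0.235. With replicate number as a block in limma, 49 tiles were called in Type5b against Type5a, 6 in Type4 against Type3b, 1 in Type5a against Type4 and 4 in Type6 against Type5b.

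Array levels over every site a library measures were 6.15% in Type3b, 7.24% in Type4, 56.4% in Type5b, 59.3% in Type6 and 87.4% in Type7. With a minimum of 3 reads they were 58.8%, 60.9% and 89.2% in Type5b, Type6 and Type7. The Type6 level was 85.4% with reads pooled, 87.5% over the 14 sites measured in every library and 89.0% with 10 reads. These sets hold other shares of spacer sites. With 10 reads the spacer exceeded the gene segment by 42.6 points in Type5b, 28.3 in Type6 and 1.70 in Type7, and the flank by 32.0 in Type5b. When libraries of X measure above 0 were left out, the Type4 gaps were 11.4 points to the gene segment and 11.03 to the flank, and with the same copies the Type6 gap to the gene segment was 29.6. The cause of these moves was not tested. The other 79 array levels, 94 tile counts and 119 gaps were within the limits set for no change. The copies' sequence likeness, 2 measured libraries of the gene segment in Type5b and few sites in Type6 limit what can be said of those segments.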
